A study of Mus musculus with 12 samples.

Results

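The 2141 probes described here read RIKEN full-length cDNA clones from thymus, dendritic cell and spleen libraries. They were chosen by the first characters of the clone name in the probe name (5830, A430, A630, E430, F630, F730 or F830) and make up 2141 of the 97836 non-control probes of a mouse long non-coding RNA array. The rule uses names and no measured value, but the clones were chosen with earlier results of these data known. F830 was the most frequent prefix with 731 probes, followed by A630 with 390, A430 with 388, F630 with 226, F730 with 156, 5830 with 154 and E430 with 96. Which prefix belongs to which library is not given in the files.

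The RNA came from spleens of female BALB/c mice aged 6 weeks per the labels, on 12 single-colour arrays. OVA mice received ovalbumin at 2 mg/kg by 3 intraperitoneal injections on days 1, 3 and 5, and control mice received normal saline in the same way. Spleens were taken on day 14 (2 control arrays, 4 OVA arrays) and on day 28 (2 control arrays, 4 OVA arrays). The labels name no genetic change in any group. The labels do not say whether an array held 1 mouse or a pool, so the p-values measure only the spread between these samples. None of the 22 marker genes of B cells, T cells, myeloid cells, red cells, NK cells and stroma that were looked for had a named probe, so the spleen label was not checked against them. In whole-organ RNA, fewer cells of a type and less RNA per cell cannot be told apart.

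RIKEN clones are copies of single mouse transcripts that were sequenced in full from cDNA libraries of many tissues. The thymus is where T cells mature, dendritic cells take up antigen and present it to T cells, and the spleen holds B and T cells, macrophages and red cell precursors. Ovalbumin, an egg-white protein, is a model antigen that immune cells of the spleen can respond to. Many RIKEN clones belong to no protein-coding gene. Others are alternative or partial transcripts of one, so a clone can read a coding gene, an intron or a neighbouring non-coding RNA.

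Gene names could be given to 50 of the 2141 clones, because the clone name is listed in RefSeq (assembly GRCm38.p6) as a symbol or synonym of exactly 1 gene. Of these genes 33 were protein-coding and 15 were long non-coding RNAs (lncRNAs). The remaining clones have no gene name here and are given by their clone name. The probes' own letters were not used here. The 4 sequences that follow are the RefSeq promoters (GRCm38.p6, 250 bases before to 50 bases after the annotated start) of the 4 genes whose clones fell most at day 28 among the clones with a gene name. These genes were picked by that fall, and a shared regulation was not tested. The sequences cover chr17:32403533-32403832 on the minus strand for Rasal3, chr17:29007946-29008245 on the minus strand for Stk38, chr17:31207816-31208115 on the plus strand for Ubash3a and chr10:128705002-128705301 on the minus strand for Cdk2. Capitals mark matches, on either strand, to the 8 motifs searched.
Rasal3: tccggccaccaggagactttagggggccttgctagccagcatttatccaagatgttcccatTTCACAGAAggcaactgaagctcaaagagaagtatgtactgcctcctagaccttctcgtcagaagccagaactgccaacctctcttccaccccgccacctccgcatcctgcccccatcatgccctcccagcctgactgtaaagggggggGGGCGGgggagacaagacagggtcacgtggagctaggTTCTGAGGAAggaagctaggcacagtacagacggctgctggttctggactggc
Stk38: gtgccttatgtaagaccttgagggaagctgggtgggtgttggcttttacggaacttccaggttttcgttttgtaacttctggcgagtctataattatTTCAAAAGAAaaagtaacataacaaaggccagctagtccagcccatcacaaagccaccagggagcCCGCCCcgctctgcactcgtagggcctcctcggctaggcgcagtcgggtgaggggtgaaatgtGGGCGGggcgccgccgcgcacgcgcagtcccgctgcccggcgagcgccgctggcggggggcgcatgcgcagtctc
Ubash3a: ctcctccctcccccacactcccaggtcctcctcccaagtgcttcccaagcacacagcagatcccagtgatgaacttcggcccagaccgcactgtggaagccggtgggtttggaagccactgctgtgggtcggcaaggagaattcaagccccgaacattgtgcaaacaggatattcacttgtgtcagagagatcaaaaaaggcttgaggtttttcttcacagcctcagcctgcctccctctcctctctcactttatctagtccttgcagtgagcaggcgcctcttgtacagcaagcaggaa
Cdk2: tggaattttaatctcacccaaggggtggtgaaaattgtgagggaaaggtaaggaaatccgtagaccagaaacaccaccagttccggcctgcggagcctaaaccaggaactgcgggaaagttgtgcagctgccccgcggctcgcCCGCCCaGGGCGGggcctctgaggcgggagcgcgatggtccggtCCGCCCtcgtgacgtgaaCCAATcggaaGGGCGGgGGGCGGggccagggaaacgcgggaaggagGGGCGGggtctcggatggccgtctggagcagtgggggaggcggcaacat

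The first motif searched was CCGGAAG, the core letters of ETS family factors of blood cells. Those of AP-1 were searched as TGANTCA, and the letters of RUNX factors, regulators of T cell development, were searched as TGTGGT. STAT factors, which carry cytokine signals, were searched as TTCNNNGAA, and STAT6, which carries the interleukin-4 signal, by its motif with a spacer longer by 1 base. General promoter elements were the CCAAT box, the TATA box searched as TATAAA and the GC box searched as GGGCGG. Overlapping matches were counted for each motif. The Rasal3 promoter held 1 match to the STAT letters, which occur in 8.30% of 32851 RefSeq promoters of this length, 1 to the STAT6 letters (6.95%) and 1 GC box (35.7%). The Stk38 promoter held 1 match to the STAT6 letters and 2 GC boxes. The Cdk2 promoter held 6 GC boxes and 1 CCAAT box (37.4%). The Ubash3a promoter held none of the 8. The start of a gene need not be the start of the clone that the probe reads, and a match describes letters only.

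Levels are given as log2 of the processed signal minus the 75th percentile of the array, so that 0 is the level under which 75% of a whole array's values lie. A probe was counted as well above background on an array when each of its spots that was not an outlier carried that flag. Of the 2141 probes, 1337 (62.4%) were well above background on all 12 arrays. The same share was 54.0% among the 13534 other RIKEN clones, 55.0% among all 97836 probes and 35.2% among 1131 RIKEN clones with name prefixes taken here as testis libraries. At the other end, 280 probes (13.1%) were well above background on no array, against 29.3% of the testis-prefix clones. These shares describe the probes, with no test, since probes are not replicates of a tissue.

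On all 12 arrays the thymus and immune-library clones had a higher share than the other RIKEN clones, and those a higher share than the testis-prefix clones among them. This did not hold for each prefix. On replicate 1 of control day 28 the share was 72.4% for F830 and 74.4% for F730, against 76.5% for the other RIKEN clones, and the remaining prefixes lay above those. The order varied between arrays: F730 had 76.9% against 76.5% on replicate 2 of control day 28, and 80.1% against 79.3% on replicate 1 of control day 14. Replicate 2 of OVA day 14 was the lowest array in each of the 3 sets. Among the thymus and immune-library clones the share on an array was 80.3% ± 4.29 (SD, n = 2) for control day 14, 75.2% ± 8.02 (n = 4) for OVA day 14, 81.6% for both arrays of control day 28 and 81.6% ± 0.80 (n = 4) for OVA day 28. The lowest array was replicate 2 of OVA day 14 with 63.2%, and the highest was replicate 1 of control day 14 with 83.4%. The first of these arrays was low for all probes (55.4% against 73.6% for the highest array of its group). The second carried a streak of 2880 raised spots, 44 of which belonged to 44 of the 2141 probes.

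The name prefixes differed among themselves. Of the 731 F830 probes 600 had 2 spots, as did 316 of the 390 A630 probes, and no probe of the other prefixes did. A probe with 2 spots had to pass on both unless 1 was an outlier, so the shares of these prefixes rest on a stricter rule. The probes with E430 names were the most often well above background on all 12 arrays (79.2%), followed by 5830 (72.7%), A430 (68.3%), F630 (66.8%), A630 (65.6%), F830 (54.2%) and F730 (51.9%). Median levels followed a similar order, from -0.49 for E430 and -1.13 for 5830 to -2.40 for F830 and -2.64 for F730. Over all 2141 probes the median level was -1.88, against -2.30 for all probes of the array, -2.47 for the other RIKEN clones and -3.75 for the testis prefixes. A probe's brightness also depends on its sequence, so a level does not rank RNAs by abundance. The last number in the probe name, from 293 to 6775, has no label in the files and was not tied to detection: the share well above background on all 12 arrays was 61.4%, 62.5%, 61.8% and 64.2% in 4 equal bins from its lowest to its highest values.

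Tests were run on 1735 of the 2141 probes, those whose probe passed background on each array of some group. The other 406 were not tested, 20 of them because an array gave them no value. This filter can let a probe in through the group in which it is high, so the counts that follow are counts of tested probes. Within a group the median SD of a tested probe was 0.17 for control day 14, 0.16 for OVA day 14, 0.12 for control day 28 and 0.14 for OVA day 28 on the log2 scale. Where a probe had 2 spots, as 916 did, the spots of 1 array differed by a median of 0.096 to 0.150. Calls are at an adjusted p under 0.05 from limma, with Benjamini-Hochberg adjustment over all 72645 tested probes of the array. All 4 control arrays lay on 1 slide, the 4 OVA day 14 arrays on another and the 4 OVA day 28 arrays on the third, so in each comparison with an OVA group slide and group cannot be told apart. The 75th percentile of the signal was 484 to 549 on the OVA day 28 arrays and 267 to 368 on the others.

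Day 28 gave most of the differences between OVA and control. Of the 1735 tested probes 256 (14.8%) passed the limma test, 108 higher and 148 lower in OVA, against 14% of all tested probes (7.42% higher, 6.6% lower). The share lay close to the background and is not a result about these clones. Changes of at least 2-fold were found for 22 probes, 21 of them higher. Over all tested probes there were 861 (1.19%), 770 of them higher, so the upward lean is not particular to these clones. The 21 include E430032F03, A430010M15 and F830002D06, which no control day 28 array read well above background. The arrays of the groups did not overlap for 794 probes (45.8%), against 42.2% of all tested probes. The median difference was -0.08 on the log2 scale for the clones and -0.03 for all tested probes.

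The probes that rose at day 28 and those that fell differed in level and size of change. The 108 higher ones had a median change of 1.57-fold, from 1.30-fold upwards, and a median level of -1.10. The largest computed fold, 6.19, was that of E430032F03, which no control day 28 array read well above background, and its bound is at least 1.42-fold. The 148 lower ones had a median change of 1.43-fold, from 1.24-fold to 2.02-fold, and a median level of -0.02. Among the higher ones 6, and among the lower ones 2, were well above background on no array of 1 of the groups, so these folds include values at background. Over all tested probes the called ones showed the same order of levels, -0.77 for higher and 0.10 for lower. By name prefix the called share ran from 18.3% for E430 (9 higher, 8 lower) to 6.90% for F730 (5 higher, 3 lower).

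The day 28 count and its split depended on single arrays and on the scaling. Without replicate 1 of control day 28 it was 71, without replicate 2 it was 52, and without replicate 1, 2 or 3 of OVA day 28 it was 139, 138 or 152. Higher probes made up 42.2% of the calls, but 50.6% of 243 with each array scaled over probes that passed background throughout, 19.0% of 673 after normexp background correction, and 54.9% or 69.2% without replicate 1 or 2 of control day 28.

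E430020H19 gave the lowest adjusted p of the 10 highest at day 28. Its levels were 0.36, 0.54, 0.42 and 0.47 on the OVA day 28 arrays and -1.08 and -1.13 on the control day 28 arrays. On day 14 they were -1.22, -1.55, -1.57 and -1.55 in OVA and -1.48 and -1.37 in control. The 4 OVA day 28 arrays thus stood above the other 8, which lay between -1.57 and -1.08. The difference at day 28 was 1.55 on the log2 scale (SE 0.12, adjusted p = 9.96e-05, limma), and it passed under all 25 alternatives. No gene name was matched to this clone.

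A similar separation of the OVA day 28 arrays was seen in 3 other probes, each well above background on all 12 arrays. A630047B03 read 1.79, 2.04, 2.01 and 2.05 on those arrays, 0.55 and 0.73 in control day 28, and 0.29 to 0.76 on day 14 (difference 1.33, SE 0.14, adjusted p = 0.00068, limma). F830017C03 read -0.22, 0.22, -0.30 and 0.32 against -1.43 and -1.48 in control day 28 (1.46, SE 0.18, adjusted p = 0.0012, limma), with -1.87 to -1.45 on day 14. A430086H19 read -0.76, -0.91, -0.80 and -0.71 against -2.21 and -2.04 (1.33, SE 0.18, adjusted p = 0.0021, limma), while its day 14 controls lay at -2.62 and -3.36 and its day 14 OVA arrays at -2.64 to -2.21. All 3 passed under all 25 alternatives at day 28.

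The other 6 of the 10 highest were dim on 1 or both control day 28 arrays. All of them but A430068B20 entered the test only through the OVA day 28 group, in which they are high, so their values are given without a p. E430032F03 read -4.24, -4.12, -4.22 and -4.16 in OVA day 28 and -7.00 and -6.63 in control day 28, where it was not well above background on either array. It was therefore at least 1.42-fold higher, a bound set by the dimmest signal that was well above background on the control arrays. The bound was at least 2.03-fold for A430010M15, which read -3.84, -3.86, -4.12 and -2.87 against -5.45 and -5.74. It was at least 2.12-fold for F830002D06, which read -2.71, -3.99, -3.84 and -3.87 against -4.76 and -5.42. In all 3 the OVA arrays of day 28 lay above both controls of that day.

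F630006C15 was well above background on 1 of the 2 control day 28 arrays. It read -3.07, -2.64, -2.64 and -2.54 in OVA against -4.41 and -4.85 in control. F630103H03, also above background on 1 control array, read -3.57, -2.91, -3.18 and -3.05 against -4.37 and -5.25. A430068B20, likewise measured on 1 control array, read -3.11, -3.30, -2.94 and -2.93 against -4.79 and -4.10 (1.38, SE 0.29, adjusted p = 0.0121, limma). Its day 14 controls read -4.05 and -3.00, both well above background, and the second of them lay within its OVA day 28 range. Without replicate 1 of control day 28 its adjusted p from limma was 0.12. After normexp, 5 of these 6 probes no longer passed, F630006C15 being the exception, and E430032F03 turned to -0.06. The day 28 difference of F630006C15 was 1.91, and 0.36 at the lowest of its alternatives.

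The probes that fell most at day 28 changed by less. A630072N20 read -2.57, -2.49, -2.36 and -2.76 in OVA and -1.61 and -1.64 in control (-0.92, SE 0.12, adjusted p = 0.0014, limma), and passed under all 25 alternatives. Its day 14 OVA arrays lay at -2.14 to -1.96, below its day 14 controls at -1.71 and -1.68. F830008B03 read -0.57, -0.68, -0.54 and -0.39 against 0.00 and 0.46 (-0.78, SE 0.13, adjusted p = 0.0049, limma). Without replicate 2 of control day 28 its adjusted p was 0.057. F830002P19 read -0.42, -0.29, -0.12 and -0.03 against 0.61 and 0.62 (-0.83, SE 0.17, adjusted p = 0.0123, limma), with 0.44 to 1.13 on day 14. This call was lost without either control of day 28 (adjusted p = 0.0728 without replicate 1 and 0.0853 without replicate 2, limma).

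Of the other 6 unnamed falls, 4 were measured in both groups, but F830203E03 was well above background on only 2 of the 4 OVA day 28 arrays. It entered the test only through the control groups of both days, in which it is high, so its values are given without a p. F830203E03 changed by -1.01, A430103B12 by -0.99 (adjusted p = 0.0158, limma), F830225E06 by -0.88 (adjusted p = 0.0218, limma) and A430023O20 by -0.84 (adjusted p = 0.0274, limma). The OVA day 28 arrays lay at -5.29 to -4.09, -1.05 to -0.81, -2.59 to -2.31 and -0.42 to -0.18 respectively, below both controls of that day in each case. No OVA day 28 array read F830047D17 or A430105D02 well above background, and they were at least 1.54-fold and at least 1.66-fold lower there. Both entered the test only through control day 28, where they are high, so no p is given. F830047D17 read -4.51, -4.73, -5.28 and -5.27 against -3.78 and -4.26, and A430105D02 read -5.00, -4.63, -4.98 and -4.74 against -3.93 and -3.95. The 3 with a p stayed called in 18 or more alternatives, but all 3 lost the call without replicate 2 of control day 28. Their differences were then -0.70 for A430103B12, -0.48 for F830225E06 and -0.93 for A430023O20. A430023O20 also lost the call without replicate 1 of that group, with a difference of -0.76. Without 1 OVA day 28 array the call was lost for F830225E06 (replicate 2) and A430023O20 (replicate 1 or 2), with adjusted p-values from limma of 0.0521 to 0.0630.

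Among the 42 tested clones with a gene name, 6 fell and 0 rose at day 28 (14.3%, near the 14% of all tested probes; 34 of the 42 were well above background on all 12 arrays). The median difference of the 42 was -0.14. All 6 were protein-coding genes. None of the 11 tested lncRNAs passed at day 28.

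Rasal3, a Ras GTPase-activating protein of lymphocytes that is needed for the survival of naive T cells, is read by A430107D22. It read 0.17, 0.30, 0.18 and 0.42 in OVA day 28 and 0.99 and 1.44 in control day 28, and 0.71 to 1.27 over the day 14 arrays. All 4 OVA day 28 arrays lay below the other 8. The difference was -0.95 (SE 0.18, adjusted p = 0.0094, limma), and without replicate 2 of control day 28 it was -0.72 with an adjusted p of 0.105.

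Ubash3a, a protein of T cells that dampens signalling from the T cell receptor, is read by 5830413C03. It read -0.68, -0.59, -0.81 and -0.46 in OVA day 28, below -0.14 and 0.09 in control day 28. On day 14 the OVA arrays (-0.31 to 0.04) and the controls (-0.03 and 0.27) overlapped. The difference at day 28 was -0.61 (SE 0.14, adjusted p = 0.0179, limma), and without replicate 1 or 2 of control day 28 the adjusted p was 0.052 or 0.144.

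Stk38, a serine/threonine kinase of the NDR family, is read by 5830476G13. It read 0.42, 0.50, 0.47 and 0.78 in OVA day 28 against 1.16 and 1.21 in control day 28, and 1.24 to 1.37 in OVA day 14 against 1.06 and 1.13. It thus lay below its controls on day 28 and above them on day 14. The day 28 difference was -0.64 (SE 0.11, adjusted p = 0.0061, limma), the day 14 difference was 0.21 (adjusted p = 0.404, limma), and the change of the difference between the days was -0.86 (SE 0.16, adjusted p = 0.0247, limma). Without replicate 2 of control day 28 the day 28 adjusted p was 0.0575.

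Cdk2, a kinase that drives the entry into DNA synthesis, is read by A630093N05. It read -0.71, -0.92, -1.0 and -1.14 in OVA day 28 against -0.39 on both controls (-0.55, SE 0.16, adjusted p = 0.0422, limma). This call was lost in 12 of 25 alternatives, among them each that left out a control of day 28 (adjusted p = 0.17 without replicate 1). Abhd11, a mitochondrial hydrolase, is read by A630008N09, one of the 10 brightest clones. It read 6.20, 5.98, 6.01 and 5.85 against 6.38 and 6.52 (-0.44, SE 0.12, adjusted p = 0.0299, limma), and was lost in 10 of 25 alternatives.

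Akap13, an anchoring protein of protein kinase A, is read by 5830460E08 and completes the 6. It was added after its values were seen. It read 2.76, 2.75, 2.77 and 2.82 in OVA day 28 against 3.18 and 3.08 in control day 28, and 2.97 to 3.04 in OVA day 14 against 3.25 and 3.46. The differences were -0.36 at day 28 (SE 0.09, adjusted p = 0.0278, limma) and -0.35 at day 14 (SE 0.09, adjusted p = 0.151, limma). At day 28 the call was lost in 9 of 25 alternatives, with an adjusted p of 0.159 without replicate 1 of control day 28.

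Other matched genes with roles in lymphocyte signalling did not pass at day 28. Dgkz, a kinase that removes the second messenger diacylglycerol, differed by 0.10 (SE 0.15, adjusted p = 0.717, limma), and Dennd1b, an activator of Rab GTPases, by 0.18 (SE 0.17, adjusted p = 0.514, limma). Among chromatin and transcription factors, the acetyltransferase Ep300 differed by -0.31 (adjusted p = 0.092), the forkhead factor Foxk1 by -0.28 (0.194) and Tox4 by 0.02 (0.888).

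The lncRNAs were dimmer than the coding matches, with a median level of -2.44 for the 11 tested against -0.37 for the 30 tested coding genes. Arhgap15os, transcribed within the Arhgap15 locus, had a level of 0.97 and differed by -0.20 at day 28 (SE 0.12, adjusted p = 0.27, limma). Mirt1 had a level of 0.26 and differed by -0.43 (SE 0.17, adjusted p = 0.109, limma). The 5830432E09Rik lncRNA within the Ptpre locus, a tyrosine phosphatase gene, had a level of -2.37 and differed by -0.15 (SE 0.15, adjusted p = 0.538, limma).

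Of 8 gene lists for T cells, B cells, myeloid cells, cytokines and allergy, interferon response, red cell and stem cells, proliferation and cytotoxic cells, 1 held a gene at or within 100 kb of a matched clone as its nearest coding gene. That was Cd5, a T cell surface receptor, 1921 bases from the lncRNA A430093F15Rik. This probe read 0.59 on replicate 1 of control day 14, where its only spot lay in the streak, and -3.78 to -2.72 on the other 11 arrays. Its differences were -2.30 at day 14 (adjusted p = 0.164) and -0.47 at day 28 (adjusted p = 0.665, limma), and it was not tested once the streak spots were left out. The untested matches included Vmn2r66, a vomeronasal receptor gene of the olfactory system, which was well above background on no array (mean level -6.38).

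At day 14 OVA and control hardly differed by the test. Of the 1735 tested probes 3 passed (0.173%), 2 higher and 1 lower, against 0.0675% of all tested probes (0.0619% higher, 0.00551% lower), and 279 (16.1%) had an unadjusted p under 0.05, against 14.7% of all tested probes. The arrays of the groups did not overlap for 402 probes (23.2%), against 23.1% of all tested probes. A630093A06 read -0.09, 0.21, 0.09 and 0.21 in OVA against -0.91 and -0.74 in control (0.93, SE 0.11, adjusted p = 0.0241, limma). A630091O11 read -3.38, -3.43, -3.21 and -2.98 against -2.13 and -1.85 (-1.26, SE 0.17, adjusted p = 0.0322, limma). F830209E13 read -3.45, -3.52, -3.48 and -3.38 against -4.12 and -4.29 (0.75, SE 0.11, adjusted p = 0.0452, limma).

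In all 3 the OVA day 14 arrays stood apart from both controls, and on day 28 the OVA and control values overlapped for all 3. No gene name was matched to any of them. The count of 3 was not stable. It was 0 without replicate 1 of control day 14 and 47 without replicate 2, which leaves the array with the streak as the only control of that day. It was also 0 without replicate 1 of control day 28, replicate 3 or 4 of OVA day 14, or replicate 1, 2 or 3 of OVA day 28, and 1 without replicate 2 of control day 28, replicate 1 of OVA day 14 or replicate 4 of OVA day 28. With the streak spots left out it was 3. Higher probes were 14.3% of the 7 called after spike-in scaling and 100% of the 6 called after normexp.

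A test of the change in the OVA effect between the days, which uses all 4 groups, passed for 48 probes (2.77%), 20 with a higher and 28 with a lower difference on day 28, against 2.92% of all tested probes (1.58% higher, 1.34% lower). This share too lay near the background. E430020H19 differed by -0.05 on day 14 and by 1.55 on day 28 (change 1.60, SE 0.16, adjusted p = 0.0031, limma). A430068B20 changed by 2.00 and F630006C15 by 1.90, both with some dim arrays, and the latter entered the test only through OVA day 28. F830205K06 read -1.65, -1.31, -1.32 and -1.35 in OVA day 28 against -2.17 and -2.85, and -3.36, -2.85, -3.12 and -2.76 in OVA day 14 against -2.71 and -2.22. Its OVA arrays therefore lay below both controls on day 14 and above both on day 28 (change 1.65, SE 0.31, adjusted p = 0.0261, limma).

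The opposite pattern was measured for A430106L17. On day 14 its OVA arrays read -1.89, -2.48, -2.10 and -1.74 against -2.75 and -2.60, and on day 28 -2.37, -2.57, -2.30 and -2.28 against -1.68 and -1.65 (change -1.33, SE 0.25, adjusted p = 0.0246, limma). A630011I19, A630093A06 and F730314L01 changed by -0.96, -0.96 and -0.88 (adjusted p = 0.0335, 0.0172 and 0.0374, limma). A630011I19 read -1.41 to -1.13 in OVA day 28 against -0.59 and -0.67, and F730314L01 read 0.12 to 0.44 against 0.89 on both controls. The count of 48 fell to 5 to 24 without any 1 of 9 arrays, namely both day 28 controls (11 and 5), replicate 1 of control day 14 (13), replicates 2, 3 and 4 of OVA day 14 (24, 13 and 19) and replicates 1, 2 and 3 of OVA day 28 (11, 8 and 7), and was 166 without replicate 2 of control day 14. Probes with a higher difference were 41.7% of the 48, but 96.1% of 51 after spike-in scaling, 75% of 48 with scaling over probes that passed background throughout and 10.6% of 556 after normexp.

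OVA day 28 against OVA day 14 compares 4 arrays with 4 and gave the most calls. It passed for 620 probes (35.7%), 232 higher and 388 lower on day 28, against 34% of all tested probes (15% higher, 19.1% lower). The arrays did not overlap for 677 probes (39.0%), against 36.7%. This comparison shares the OVA day 28 arrays with the day 28 comparison, so calls in both are not independent. E430020H19, F830017C03 and A430086H19, described above for day 28, differed by 1.92, 1.69 and 1.68.

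A430034H03 was not well above background on any OVA day 14 array (-5.03, -5.26, -6.04 and -4.91) and read -3.48, -4.07, -3.48 and -3.63 on day 28, at least 1.31-fold higher. It entered the test only through OVA day 28, so no p is given. E430019C06 read -2.15, -2.52, -2.19 and -2.17 on day 28 and -3.54, -5.14, -3.65 and -3.18 on day 14, with 3 of the 4 day 14 arrays well above background (1.62, SE 0.33, adjusted p = 0.0037, limma). It did not pass against the day 28 controls (adjusted p = 0.243, limma).

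On the lower side, A430096J21 read 2.72, 2.44, 2.12 and 2.67 on OVA day 28 against 3.51, 3.24, 3.79 and 3.53 on OVA day 14 (-1.03, SE 0.16, adjusted p = 0.00099, limma). Its controls lay at 2.85 and 2.71 on day 28 and at 3.38 and 2.86 on day 14. E430025H16 read 0.30, 0.20, 0.26 and 0.17 against 0.97, 1.48, 0.99 and 1.08 (-0.90, SE 0.16, adjusted p = 0.0016, limma). A630020O16 differed by -0.88 (SE 0.14, adjusted p = 0.00086, limma), F830002P19 by -1.01 (SE 0.14, adjusted p = 0.00047, limma) and F830047D17 was at least 1.65-fold lower. Higher probes were 37.4% of the calls, but 65.5% of 475 after spike-in scaling, 47.9% of 574 with scaling over probes that passed background throughout, and 16.3% of 1129 after normexp.

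Of the 42 gene-matched clones, 4 were higher and 8 lower on OVA day 28 than on OVA day 14 (28.6%, against 34% of all tested probes, 15% higher and 19.1% lower). The higher ones were Tmem245 (0.73), Arhgef18 (0.58), Tox4 (0.40) and Impact (0.34), the last an inhibitor of the kinase GCN2. The lower ones held all 6 genes called against the day 28 controls, with Cdk2 (-0.85) and Stk38 (-0.76) first, and also Ep300 (-0.37) and the lncRNA Gm27162 (-0.79, SE 0.20, adjusted p = 0.011, limma).

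Between the control groups, which lay on 1 slide, 0 of the 1735 tested probes passed limma from day 14 to day 28, against 0.00138% of all tested probes. An unadjusted p under 0.05 was found for 195 (11.2%), against 10.3% of all tested probes. The largest moderated statistic belonged to A430075L16, which read -3.45 and -3.54 on day 28 against -4.34 and -4.43 on day 14 (0.89, SE 0.17, adjusted p = 0.245, limma). F730209F17 read -1.14 and -1.15 against -1.78 and -1.80 (0.65, adjusted p = 0.245) and A430106L17 read -1.68 and -1.65 against -2.75 and -2.60 (1.01, adjusted p = 0.245, limma). Without replicate 2 of control day 14, the only case with a call, 41 probes passed, and the remaining day 14 control was the array with the streak.

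The 10 brightest clones lay between 4.56 and 9.0 on every array. A430034L18, the brightest, read 8.06 and 8.02 in control day 14, 8.35, 8.25, 8.24 and 8.23 in OVA day 14, 8.11 and 8.10 in control day 28, and 9.0, 7.85, 7.77 and 7.45 in OVA day 28. F830116B19 read 8.77, 7.78, 7.69 and 7.60 in OVA day 28 and 7.86 to 8.13 on the other arrays. A630045I04 read 8.62, 7.64, 7.47 and 7.29 in OVA day 28 and 6.78 to 7.26 elsewhere. In these 3 probes replicate 1 of OVA day 28 was the highest of the 12 arrays. None of the 3 passed at day 28 (adjusted p = 0.881, 0.901 and 0.241, limma). Against OVA day 14, A630045I04 differed on OVA day 28 by 0.69 (SE 0.23, adjusted p = 0.0403, limma).

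F630112C10, F830035D20, A430082O03 and F830021G03 also did not pass at day 28, with differences of -0.36, 0.03, -0.10 and -0.29. Against OVA day 14, F830021G03 differed on OVA day 28 by -0.34 and A630008N09 by -0.60 (adjusted p = 0.0063 and 0.00098, limma). F830011N13 and A430082A11 differed there by -0.74 and -0.37 (adjusted p = 0.00022 and 0.0063, limma). Apart from these and A630045I04, none of the 10 passed there. F830011N13 read 4.79, 4.82, 4.79 and 4.61 in OVA day 28 against 5.32 and 5.34 (-0.58, SE 0.11, adjusted p = 0.0085, limma), and A430082A11 read 4.75, 4.68, 4.71 and 4.56 against 5.06 and 5.18 (-0.44, SE 0.10, adjusted p = 0.0178, limma). Both lost the call without either control of day 28, with adjusted p-values from limma of 0.0504 and 0.0672 for F830011N13 and 0.059 and 0.126 for A430082A11.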

How the data were processed

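The authors deposited 1 scanner file per array, from Agilent's Feature Extraction program, version 11.5.1.1 per the file headers and 9.1 per the submitters' processing notes. They hold a spot intensity on a linear scale, background-corrected by that program, and per the file headers the spot flags (outlier, well above background, saturated) are other columns. The processed intensity was put on a log2 scale, the 75th percentile of the array subtracted, and unflagged spots of a probe averaged; 0 spots were saturated. Probes that passed background on each array of some group (72645) entered 1 limma model (limma 3.58.1, R 4.3.3) with 4 groups, 12 arrays and 8 residual degrees of freedom. The same model was run on simulated data only after the main fit, with the means and spreads of the real probes.

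A difference against a group in which a probe was not well above background is given as a bound, from the dimmest well-above-background signal of each array. The number of arrays limits the precision, most of all for groups of 2 controls. The clones, the 8 gene lists and the tests were chosen with earlier results of these data known. Named clones are the 10 brightest, the 10 highest and 10 lowest of the calls at day 28 without overlap (5 and 5 between the OVA groups, 4 and 4 for the change between days), the calls or the 3 of largest statistic otherwise, the 5 highest and 5 lowest calls with a gene name, and clones at or beside a listed gene. Names by the clone name alone, used for 5 genes, were added after the files were seen. Replicate numbers do not pair the samples: deviations of same-numbered arrays correlated at -0.18 to 0.32. The 25 alternatives cover background correction, scaling, filter, spots, spread, blocks and each array left out; leaving out the streak spots was chosen after seeing the data. Background alternatives used the median signal with an offset of 50.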

Additional observations from a re-analysis of the deposited data

Results flagged for a closer look

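Of 98 groups of 4 arrays checked among the named clones, 11 had 1 array far from the other 3 by Dixon's criterion (gap over range above 0.829), where chance gives about 1 in 20. On OVA day 28 these were replicate 1 for F830116B19 (8.77), F830002D06 (-2.71), A630047B03 (1.79) and F830205K06 (-1.65), replicate 2 for E430019C06 (-2.52), replicate 3 for A630020O16 (-2.91) and replicate 4 for F830011N13 (4.61). On OVA day 14 they were replicate 1 for E430020H19 (-1.22), replicate 2 for A630008N09 (Abhd11, 6.75) and A630011I19 (-0.22), and replicate 4 for A430010M15 (-4.91). All are levels as log2 processed signal minus the array's 75th percentile.

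For 16 named clones limma's test of the change in the OVA effect between day 28 and day 14 passed. F630006C15 and F630103H03 among them entered the test only through OVA day 28, in which they are high, so no p is given for them. For the other clones the adjusted p ran from 0.0031 to 0.0396 (limma). The call was lost in 15 of 24 alternatives for F730314L01 and in 1 of 24 for E430020H19. For F630006C15 the change ran from 0.13 to 2.49 over 23 alternatives. The change was upward, on the log2 scale, for A430068B20 (2.00), F630006C15 (1.90), F830205K06 (1.65), E430020H19 (1.60), F630103H03 (1.51), F830017C03 (1.41), A630047B03 (1.31) and A630091O11 (1.17). It was downward for A430106L17 (-1.33), A630011I19 (-0.96), A630093A06 (-0.96), F730314L01 (-0.88), 5830476G13 (Stk38, -0.86), F830209E13 (-0.81), F830011N13 (-0.70) and A430082A11 (-0.66). OVA day 14 and OVA day 28 were hybridised on different slides, and in these changes slide and day cannot be told apart.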

How the results depend on the processing

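Over 59 results and 1447 values under the alternatives, 1216 kept their direction and their side of the threshold, 212 lost a call, 4 gained one and 15 turned. Scaling moved the median of all tested probes: at day 28 from -0.03 to -0.15 with normexp, between the OVA groups from -0.06 to -0.23 with normexp, and at day 14 from 0.05 to -0.21 with spike-in scaling. The count of clones called at day 14 (3) was 6 with normexp, 7 with spike-in scaling, 6 for probes well above background on all 12 arrays, 6 with a trended robust spread, and 0 with no filter, with only the groups compared, with array weights and with array position as a block. At day 28 (256) it was 673 with normexp, 162 with spike-in scaling, 147 with no filter and 86 with array position. For the change between days (48) it was 556 with normexp, 5 with no filter, 109 for probes above background on all 12 arrays, 0 with array position (no clone), 120 with the trended robust spread and 9 with array weights. Between the OVA groups (620) it was 1129 with normexp. With the replicate number as a block, which does not pair these samples, the counts were 0 at day 14, 162 at day 28, 6 for the change between days and 581 between the OVA groups. Without 1 array at a time they ran from 0 to 47 at day 14, 52 to 308 at day 28, 5 to 166 for the change between days, 486 to 672 between the OVA groups and 0 to 41 between the controls. A lone remaining control is assumed to vary like the other groups.

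Turned values at day 28 belonged to uncalled bright clones and 1 dim one. A430034L18 gave 0.00080 with quantile normalization, 0.13 with the replicate block and -0.42 to 0.10 without 1 array. F830116B19 gave 0.019 with normexp, 0.046 with quantile normalization, 0.085 with the block and -0.33 to 0.060 without 1 array. F830035D20 gave -0.067 with array position and -0.080 to 0.13 without 1 array. A430082O03 gave 0.031 with quantile normalization and E430032F03 -0.057 with normexp. Between the OVA groups A430034H03 gave -0.078 with normexp. The cause was not tested. The slide as a block could not be fitted against the OVA groups.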
